A study of Sus scrofa with 12 samples.

Results

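The genes that write, copy, oxidise, excise and protect DNA methylation were examined in porcine (Sus scrofa) embryos made by in vitro fertilisation. The list held 10 genes: DNMT1, DNMT3A, DNMT3B, DNMT3L, TET1, TET2, TET3, UHRF1, TDG and DPPA3. Members were found by their symbol in the deposited count table. A row was present for 7 of the 10, among 29329 genes in all, and all 7 were among the 17995 genes tested. DNMT3L, TET2 and DPPA3 were not analysed here.

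RNA was profiled by SMART-seq, in which an oligo(dT) primer starts the cDNA from polyadenylated RNA and the cDNA is amplified by PCR before sequencing. The 12 libraries formed 4 groups of 3: con-2c and con-4c (labelled blank control) and si-2c and si-4c (injected with si-CCNB2, a short interfering RNA against cyclin B2), with the cleavage stage given in the title. Each library was a pool of embryos, and the labels and methods left unclear whether the control embryos were injected, so an si against con difference can hold the injection too. The tissue label of each of the 12 libraries gives another stage than its title (2c titles carry a 4-cell tissue label, and 4c titles a 2-cell one), so the group names stand for titles only. No source says that libraries of a group came from separate fertilisations, so p-values measure the spread between these libraries.

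Cytosine methylation is placed on unmethylated DNA by DNMT3A and DNMT3B and copied after replication by DNMT1, which UHRF1 guides to hemimethylated sites. TET enzymes oxidise 5-methylcytosine, and the glycosylase TDG removes some of the oxidised bases so that base excision repair can fill in cytosine. Around fertilisation mammalian embryos pass from RNA stored by the oocyte to RNA made by the embryo, while much of the methylation of the gametes is lost. Mammalian oocytes store an oocyte form of DNMT1, and TET3 is known for oxidising methylation in the zygote.

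Totals were 27785233 to 39510908 counts per library. CCNB2, the targeted mRNA, was at 443.3 to 486.5 CPM (counts relative to the TMM-scaled library total) in con-2c and 428.5 to 510.1 in con-4c, against 17.77 to 28.75 in si-2c and 40.32 to 46.82 in si-4c, so it was lower in every si library than in every control library. All 12 oocyte markers examined were present in every group. Their summed level was 20990 to 25830 CPM in con-2c and 23880 to 26150 in si-4c, against 11080 to 11810 in con-4c and 11130 to 12950 in si-2c. Summed sperm markers (6 of 12 in the table) were at most 1.57 CPM in any library. Across all genes, si-4c lay close to con-2c, with calls of 6 higher and 54 lower genes between them, against 2598 and 584 between con-4c and con-2c. The other crossed pair, si-2c versus con-4c, had 29 higher and 293 lower. Leaving out 1 library took the counts of si-4c versus con-2c to between 2 and 14 higher (2 without library 2 of con-4c or of si-4c, 3 without library 1 of con-4c or of si-2c, 12 and 14 without libraries 1 and 3 of con-2c) and between 33 and 65 lower (33 without library 2 of si-4c), and the 29 of si-2c versus con-4c to 17 without library 1 of si-2c. An exchange of the stage titles within the si libraries and a difference due to the si treatment cannot be told apart from these counts alone, so each si against con value and the interaction hold for the titles as given, and an exchange would change what they compare. Calls needed an adjusted p below 0.05 (edgeR quasi-likelihood test, Benjamini-Hochberg over all genes tested) and a log2 fold change of 1 or more in size. Scaling by library totals in place of TMM moved the median log2 fold change of all genes in con-4c versus con-2c from 0.11 to 0.38, and in si-2c versus con-2c from 0.12 to 0.52. It also moved the share of calls that were higher from 81.7% to 93.4% in con-4c versus con-2c, from 85.6% to 98.1% in si-2c versus con-2c, from 16.5% to 6.47% in si-4c versus con-4c, from 11% to 1.59% in si-4c versus si-2c, from 9.01% to 21.9% in si-2c versus con-4c and from 30.5% to 8.73% in the interaction (the difference between titles in si embryos less that in control embryos). CPM is a share of the RNA captured, so fewer molecules of one gene and more of the others cannot be told apart.

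DNMT1 (ENSSSCG00000013659, Sscrofa11.1, chr2:68981564-69040364), the maintenance methyltransferase, was the gene with the most counts in each of the 12 libraries. In con-2c it took 6.78%, 6.90% and 6.09% of the counts of libraries 1, 2 and 3. In con-4c it took 5.09%, 5.09% and 5.23%. In si-2c the shares were 4.75%, 4.95% and 4.36%, and in si-4c 6.23%, 6.33% and 6.49%. The con-2c and si-4c libraries thus lay above every con-4c and si-2c library, and con-2c and si-4c overlapped. Exact Clopper-Pearson intervals (95%) of these shares reached at most 0.00818 percentage points to either side, and they cover counting error only, since amplified reads without molecular identifiers are not independent molecules. DNMT1 had 1.09 to 1.72 times the count of the next gene, and 99.6% to 99.9% of the counts of the 7 members. These are shares of counts, not of molecules per gene length.

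On the TMM scale DNMT1 was at 74540 ± 9743 CPM (SD, n = 3) in con-2c and 47880 ± 1216 in con-4c, while si-2c had 40170 ± 3942 and si-4c 70680 ± 865. Relative to con-2c, con-4c was lower, with a log2 fold change of -0.64 (SE 0.09, edgeR adjusted p = 3.62e-05), and so was si-2c, with -0.89 (SE 0.09, adjusted p = 1.54e-06). It was higher in si-4c than con-4c by 0.56 (SE 0.09, adjusted p = 0.000132) and than si-2c by 0.82 (SE 0.09, adjusted p = 4.19e-06). These differences passed the adjusted p but stayed under the log2 fold change of 1 that a call needed. Between si-4c and con-2c the difference was -0.08 (95% interval -0.27 to 0.12, adjusted p = 0.875). The size depended on the scaling: with library totals, con-4c versus con-2c gave -0.36 and si-2c versus con-2c -0.49, and after subtracting the median over genes the values were -0.75 and -1.02 with TMM and -0.74 and -1.01 with library totals. The summed oocyte markers were high and low in the same groups as DNMT1, and most of that sum was BTG4, with means of 18560 CPM in con-2c and 7677 in con-4c, while si-2c averaged 7892 and si-4c 19660. In con-4c versus con-2c, 3 of the 12 oocyte markers were called lower (BTG4, OOEP and ZP4) and 0 higher, beside 3.25% and 14.4% of all genes tested. Not every marker had this order: BMP15 averaged 886.8 CPM in con-2c and 1227 in si-2c, and KPNA7 975.9 to 1122 over the groups. Among the cumulus and granulosa markers VCAN was likewise higher in con-2c and si-4c than in con-4c and si-2c, and it made up most of the sum (297.9 to 372.7 CPM in con-2c and 183.8 to 191.7 in con-4c, while si-2c had 177.8 to 204.0 and si-4c 298.6 to 307.0). Of the 11 such markers in the table (of 14 listed), FOXL2 and CYP11A1 had a mean of at most 0.0221 CPM in any group. CYP19A1 was also lower in con-4c, with means of 0.715 CPM in con-2c and 0.208 in con-4c, while si-2c (0.505) was above si-4c (0.475). Others went the other way: TNFAIP6 averaged 0.316 CPM in con-2c and 1.04 in con-4c, FST 6.10 and 7.72, and PTX3 was at 0 in con-2c and 0.604 in si-2c. The median log2 fold change of the 6 tested in con-4c versus con-2c was 0.31, opposite in sign to the change of the sum. The oocyte, cumulus and granulosa markers named here were chosen after their values were seen. The part of these RNAs in the DNMT1 result was not tested.

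TDG (ENSSSCG00000000847, chr5:80473233-80492295), the glycosylase that excises oxidised methylcytosine, had the widest spread between groups: its group means of log2 CPM (prior count 2) spanned 9.86, against 0.92 for DNMT3B, the next member. The con-2c libraries held 9, 11 and 14 counts of it. The con-4c libraries held 1626, 1668 and 1594 counts, and the si-2c libraries 868, 814 and 1075. All 3 si-4c libraries held 0. No 2 groups overlapped, and the order was con-4c, si-2c, con-2c and si-4c.

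In CPM, TDG was at 0.348 ± 0.0742 (SD, n = 3) in con-2c, 53.5 ± 1.73 in con-4c and 22.0 ± 0.976 in si-2c. A count of 0 in si-4c allows up to 3 counts per library, a mean of 0.0887 CPM. TDG rose in con-4c over con-2c by 7.25 on the log2 scale (SE 0.17, edgeR adjusted p = 2.37e-13), a 152-fold difference, and in si-2c over con-2c by 5.97 (SE 0.17, adjusted p = 3.08e-12), or 62.6-fold. For both, con-2c held only 34 TDG counts in all. The SE comes from the F statistic and is smaller than the counting error at that number, so it understates the uncertainty. TDG was lower in si-2c than con-4c by a log2 fold change of -1.28 (SE 0.11, adjusted p = 6.28e-06). Against the floor of 3 counts per library, TDG in si-4c was at least 603-fold lower than con-4c, and at least 248-fold lower than si-2c (adjusted p = 5.64e-14 and 4.74e-13). It was at least 3.92-fold lower than con-2c, which rests on a few counts per library, and TDG entered that comparison only because con-4c and si-2c carried it past the low-count filter. In a fit of si-4c and con-2c alone it was not tested. The RefSeq span of TDG overlaps that of GLT8D2 by 732 bases, and the sources used here do not say whether counting used strand. GLT8D2 had 3199 to 3685 counts in con-2c and 2924 to 3369 in si-4c, the groups with almost no TDG, against 1681 to 1915 in con-4c and 2063 to 3145 in si-2c.

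**Figure D1:**
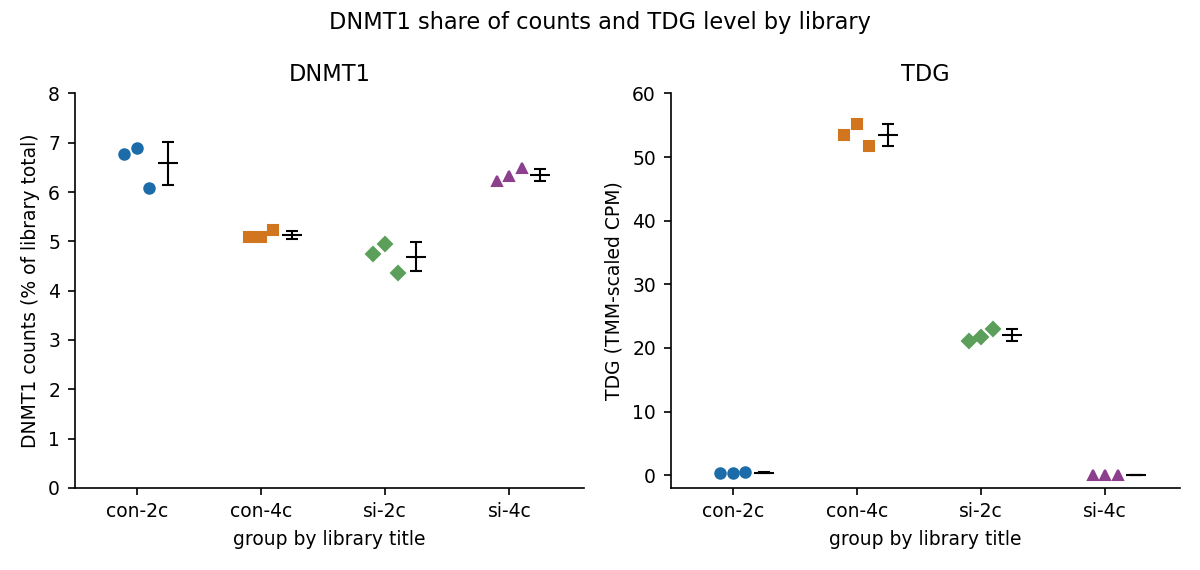
Left, counts of DNMT1 as a percentage of the library total. Right, TDG in TMM-scaled CPM. Each point is 1 library of the group named on the horizontal axis, and the black bar beside it is the mean with the SD (n = 3). DNMT1 is highest in con-2c and si-4c, where TDG is at or near 0, and TDG is at 53.5 CPM in con-4c and 22.0 in si-2c.

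UHRF1 (ENSSSCG00000013517, chr2:73898061-73937727), which recruits DNMT1 to newly replicated DNA, was rare. It was at 10.97, 7.78 and 11.06 CPM in con-2c and at 8.68, 6.39 and 7.38 CPM in con-4c. It was at 11.01, 10.65 and 9.14 CPM in si-2c and at 9.02, 8.64 and 8.98 CPM in si-4c. The con-2c libraries overlapped every other group, while those of si-2c lay above those of con-4c and si-4c. On the TMM scale UHRF1 passed the adjusted p in no comparison. The lowest adjusted p was 0.0744, for con-4c versus con-2c (log2 fold change -0.41, 95% interval -0.77 to -0.05), and with library totals that value was -0.14. The largest value was 0.46 for si-2c versus con-4c (95% interval 0.10 to 0.82, adjusted p = 0.128). With library totals si-2c versus con-2c went from 0.05 to 0.43 (adjusted p = 0.0766), and si-4c versus si-2c from -0.21 to -0.59, which passed (adjusted p = 0.0205). The span of UHRF1 overlaps ARRDC5 by 2190 bases, and ARRDC5 had at most 7 counts in any library.

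The de novo methyltransferases DNMT3A and DNMT3B differed in opposite directions between con-4c and con-2c. DNMT3A (ENSSSCG00000029413, chr3:113501972-113609148) was at 39.3, 42.2 and 54.7 CPM in con-2c and at 64.9, 59.6 and 56.9 CPM in con-4c. It was at 71.9, 63.0 and 56.7 CPM in si-2c and at 40.6, 42.2 and 44.5 CPM in si-4c. Every con-4c and si-2c library was above every con-2c and si-4c library. DNMT3B (ENSSSCG00000007252, chr17:36345715-36386076) was at 29.6, 26.1 and 33.1 CPM in con-2c and at 18.5, 16.1 and 12.6 CPM in con-4c. It was at 22.9, 21.8 and 20.3 CPM in si-2c and at 21.7, 30.3 and 29.8 CPM in si-4c. The con-4c libraries were the lowest of all for DNMT3B, con-2c lay above si-2c, and si-4c overlapped both.

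DNMT3A was higher in con-4c than con-2c by a log2 fold change of 0.41 (SE 0.12, edgeR adjusted p = 0.0122) and in si-2c than con-2c by 0.49 (SE 0.12, adjusted p = 0.00465). It was lower in si-4c than con-4c by -0.51 (adjusted p = 0.00281) and than si-2c by -0.59 (adjusted p = 0.00121). DNMT3B was lower in con-4c than con-2c by -0.91 (SE 0.15, adjusted p = 0.000175) and in si-2c than con-2c by -0.45 (SE 0.15, adjusted p = 0.0342), whereas si-4c was above con-4c by 0.79 (SE 0.15, adjusted p = 0.000635). None of these reached a log2 fold change of 1. With library totals the DNMT3B difference between si-2c and con-2c shrank to -0.06 and that between con-4c and con-2c to -0.64, while those of DNMT3A grew to 0.88 and 0.67. Without library 1 of con-4c, DNMT3B passed the fold minimum in con-4c versus con-2c (-1.05, adjusted p = 0.0002).

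A ratio of counts within a library does not depend on scaling. The ratio of DNMT3A to DNMT3B counts was 1.33 to 1.65 in con-2c and 1.39 to 1.87 in si-4c. It was 3.51 to 4.51 in con-4c and 2.79 to 3.14 in si-2c. Every con-4c library thus had a higher ratio than every si-2c library, and both groups lay above con-2c and si-4c. The means were 1.53 ± 0.176 in con-2c and 3.90 ± 0.535 in con-4c, while si-2c had 2.94 ± 0.182 and si-4c 1.58 ± 0.249 (SD, n = 3). With 3 libraries against 3 an exact permutation test cannot go below p = 0.10, and the ratios are given as a description, with no test run on them.

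**Figure D2:**
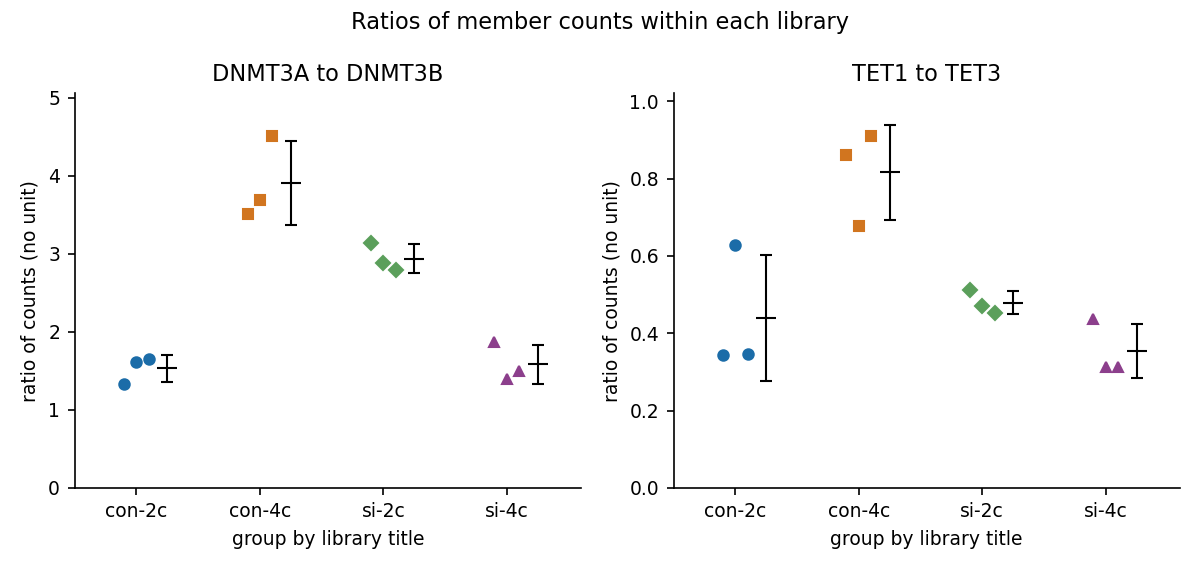
Ratio of the counts of DNMT3A to DNMT3B (left) and of TET1 to TET3 (right) within each library, with no unit. Points are libraries, and the bars are the mean and SD (n = 3). The DNMT3A to DNMT3B ratio is 3.51 to 4.51 in con-4c and 1.33 to 1.65 in con-2c, and the TET1 to TET3 ratio is at least 0.677 in con-4c and at most 0.628 in the other groups.

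The dioxygenases TET1 and TET3, which oxidise 5-methylcytosine, were also of low abundance. TET3 (ENSSSCG00000008292, chr3:68918896-69020406) was at 23.0, 18.0 and 24.3 CPM in con-2c and at 14.9, 16.4 and 13.1 CPM in con-4c. It was at 21.7, 19.7 and 22.7 CPM in si-2c and at 22.0, 30.2 and 26.8 CPM in si-4c. All con-4c libraries were below all others, and the other groups overlapped. TET3 was lower in con-4c than con-2c by a log2 fold change of -0.56 (SE 0.14, edgeR adjusted p = 0.00606; -0.29 with library totals, adjusted p = 0.195), lower in con-4c than si-4c (0.83 for si-4c versus con-4c, SE 0.14, adjusted p = 0.000219) and lower in con-4c than si-2c (0.53 for si-2c versus con-4c, SE 0.14, adjusted p = 0.0317). Between si-2c and con-2c it differed by -0.03 (95% interval -0.33 to 0.27), which turned to 0.36 with library totals (adjusted p = 0.0954).

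TET1 (ENSSSCG00000010241, chr14:71675671-71812732) was at 7.92, 11.3 and 8.39 CPM in con-2c and at 12.80, 11.13 and 11.96 CPM in con-4c. It was at 10.2 ± 0.908 CPM (SD, n = 3) in si-2c and at 9.59, 9.48 and 8.42 CPM in si-4c. The con-4c libraries were above those of si-2c and si-4c and overlapped con-2c. TET1 passed the adjusted p in no comparison on the TMM scale, with values of 0.38 (95% interval 0.04 to 0.71, adjusted p = 0.0738) for con-4c versus con-2c and -0.38 (-0.72 to -0.05, adjusted p = 0.067) for si-4c versus con-4c. With library totals these became 0.65 and -0.64. The ratio of TET1 to TET3 counts was 0.677 to 0.911 in con-4c, 0.344 to 0.628 in con-2c, 0.453 to 0.512 in si-2c and 0.314 to 0.436 in si-4c. Other RefSeq entries lie in these spans, a pseudogene of 682 bases inside TET1 and LOC102163719 over 342 bases of TET3, and reads there cannot be told apart without the counting rule.

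**Figure D3:**
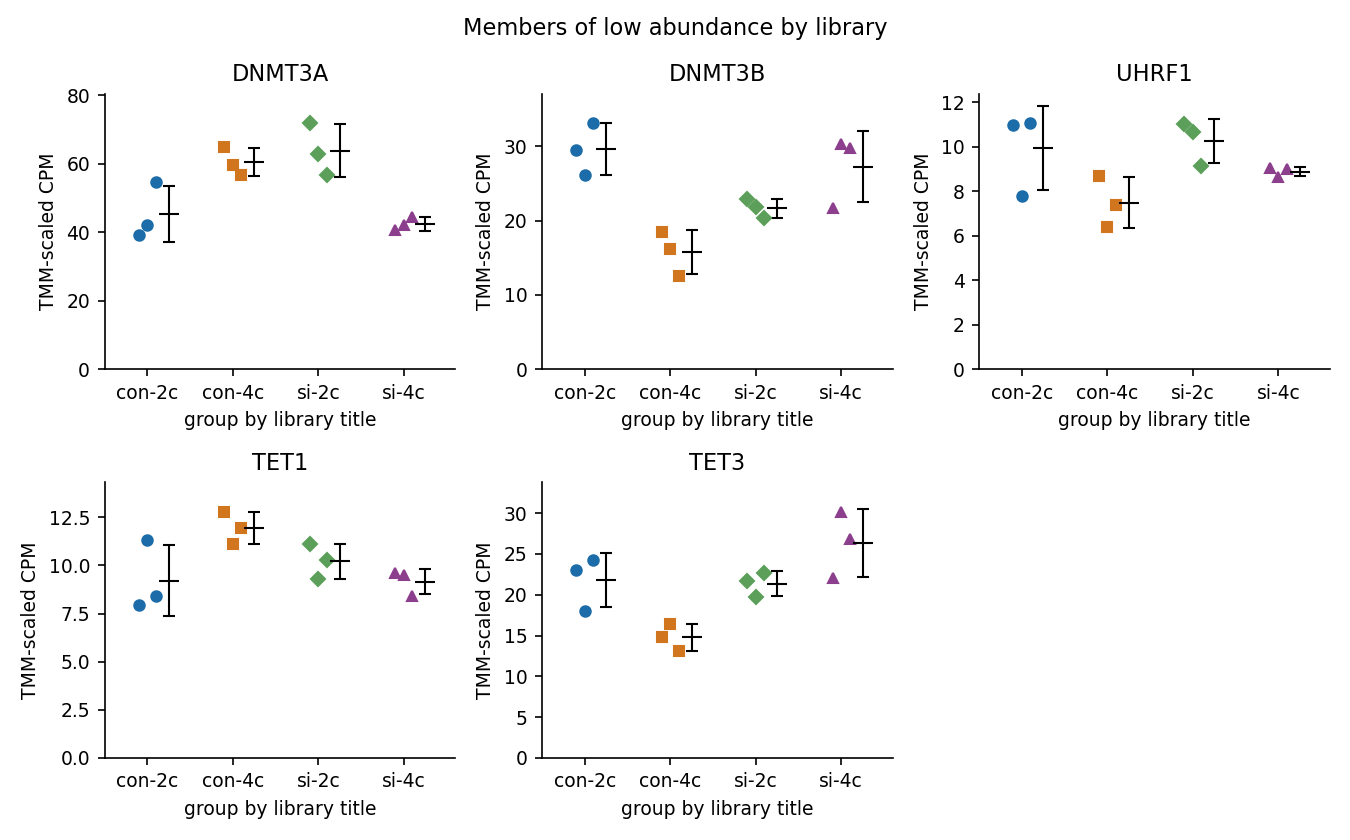
TMM-scaled CPM of DNMT3A, DNMT3B, UHRF1, TET1 and TET3. Each point is 1 library and the bars are the mean and SD (n = 3). DNMT3A is higher in con-4c and si-2c, DNMT3B and TET3 are lowest in con-4c, and the groups of UHRF1 lie between 6.39 and 11.06 CPM.

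Counted over the list, con-4c versus con-2c called 1 member higher (TDG) and 0 lower, beside 14.4% of all genes tested higher and 3.25% lower. Without the fold minimum 5 of the 7 members passed the adjusted p, against 35.8% of all genes. In si-2c versus con-2c, TDG was again the 1 member called higher and 0 were lower (10.7% and 1.8% of all genes), and 4 members passed without the fold minimum (29% of all genes). In si-4c versus con-4c, TDG was the 1 member lower and 0 were higher (15.8% of all genes lower and 3.12% higher), and 5 passed without the fold minimum (36.8% of all genes). In si-4c versus si-2c, TDG was the 1 member lower and 0 were higher (11.9% and 1.47%), and 3 passed without the fold minimum (28.9%). These comparisons share libraries pairwise and are not independent of each other.

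In the crossed comparison si-4c versus con-2c, TDG is not counted, since it passed the filter only through the other groups. The other 6 members had adjusted p of 0.483 to 1 by edgeR, and their 95% intervals all held 0 (0.3% of all genes were called lower and 0.0333% higher, and 0.672% passed without the fold minimum). The widest interval reached from -0.52 to 0.20 for UHRF1, and TET3 had the largest value, 0.28 (95% interval -0.02 to 0.58). In si-2c versus con-4c, TDG was the 1 member lower and 0 were higher (1.63% and 0.161% of all genes), and 2 passed without the fold minimum, TDG and TET3 (7.54% of all genes). DNMT3A differed by 0.08 there (-0.17 to 0.33), DNMT1 by -0.25 (-0.45 to -0.06, edgeR adjusted p = 0.116) and DNMT3B by 0.46 (0.14 to 0.79, adjusted p = 0.0832).

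**Figure D4:**
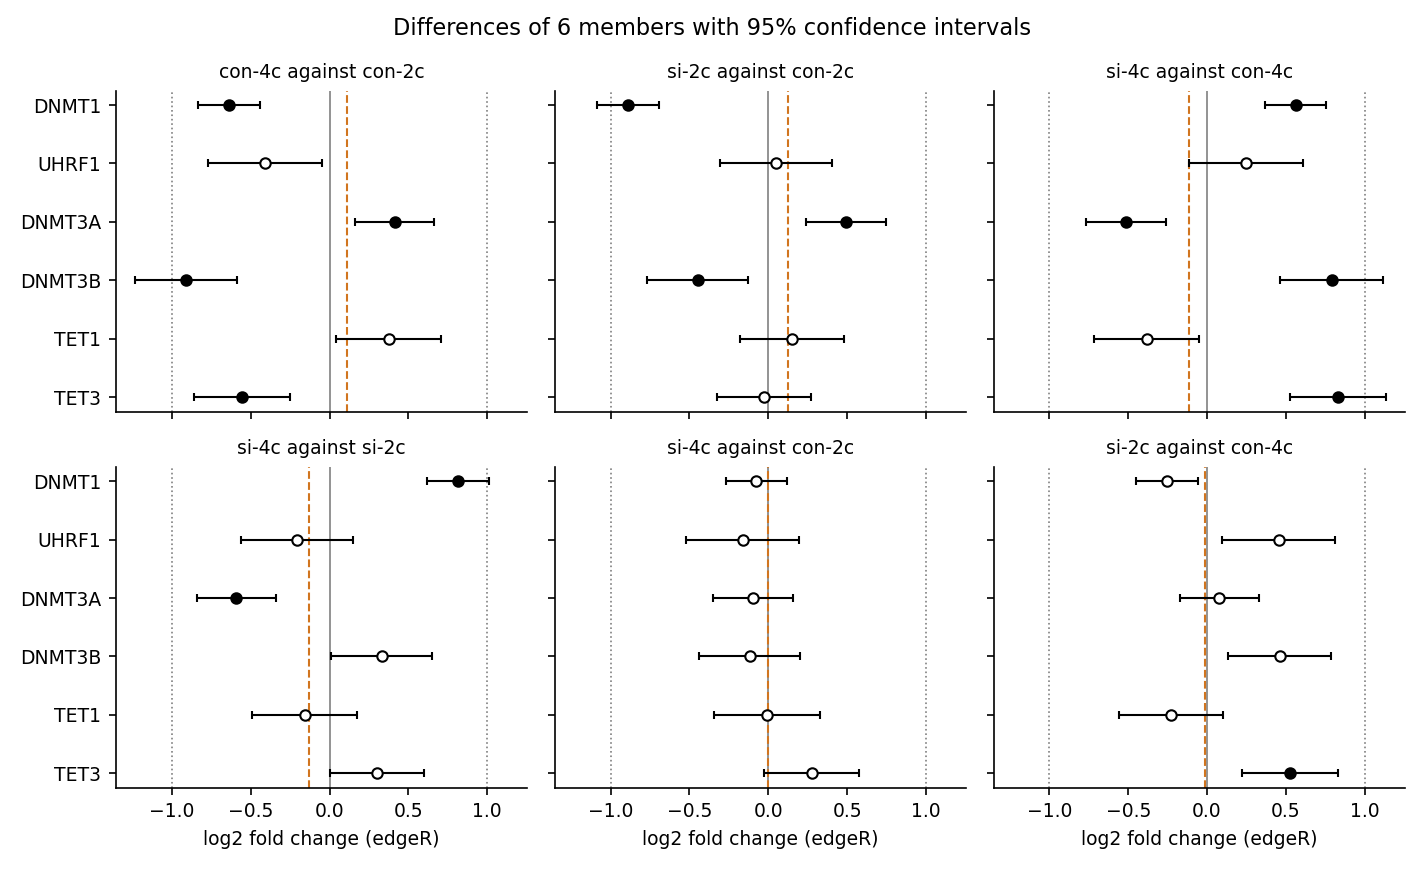
Log2 fold changes of 6 members in each comparison with 95% confidence intervals from the edgeR fit. Filled points passed the adjusted p of 0.05, the dashed line is the median of all genes tested, and the dotted lines mark the fold minimum of 1. In con-4c versus con-2c DNMT1 (-0.64) and DNMT3B (-0.91) lie left of 0 and DNMT3A (0.41) right of it, in si-4c versus con-4c the signs are exchanged, and in si-4c versus con-2c all 6 intervals hold 0. TDG is left out because its values exceed the axis.

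The interaction tested whether the difference between titles itself differed between si and control embryos. It was 1.45 for DNMT1 (95% interval 1.18 to 1.73, edgeR adjusted p = 9.95e-08), 1.24 for DNMT3B (0.78 to 1.70, adjusted p = 0.000161) and 0.86 for TET3 (0.43 to 1.29, adjusted p = 0.00224), and -1.004 for DNMT3A (-1.36 to -0.65, adjusted p = 0.000116). DNMT1 was thus lower in con-4c than con-2c and higher in si-4c than si-2c, and DNMT3A the reverse. For DNMT3B and TET3, which were lower in con-4c than con-2c, the values of si-4c versus si-2c were 0.33 (adjusted p = 0.117) and 0.30 (adjusted p = 0.124), and with library totals -0.05 and -0.08. TDG, called lower, was higher in con-4c than con-2c and at 0 in si-4c. By the call rule 2 members were higher and 2 lower (9.87% and 22.5% of all genes), and 5 passed without the fold minimum (45.5% of all genes). DNMT1 and DNMT3B lost their call with library totals, at 0.80 (adjusted p = 3.25e-07) and 0.60 (adjusted p = 0.0534), TET3 fell to 0.21 (adjusted p = 0.478), and TET1 gained one there at -1.20 (adjusted p = 0.000413), from -0.54 (adjusted p = 0.0597). DNMT3A sat at the fold minimum. With library totals it was -1.64 (adjusted p = 4.72e-06), and leaving out any one of 6 libraries (1 or 2 of con-2c, 1 of con-4c, 1 of si-2c, and 1 or 2 of si-4c) took it to between -0.99 and -0.90, with adjusted p of 0.000482 to 0.000644.

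The members were also compared by the shape of their profile over the 12 libraries, as the root mean square difference of log2 CPM (prior count 2) centred on each gene's mean, among 5320 genes with a symbol and a mean of at least 10 CPM. The genes closest to DNMT1 were SMC1B, a meiotic cohesin subunit (0.048), DPPA5 (0.081) and TAF11, a subunit of the general transcription factor TFIID (0.087). SMC1B averaged 1602 CPM in con-2c, 1489 in si-4c, 1076 in con-4c and 851.5 in si-2c. The genes closest to TDG were SUPT4H1, a transcription elongation factor subunit (0.662), MSANTD5 (0.688) and CLDN8, a claudin of tight junctions (0.746). SUPT4H1 averaged 421.9 CPM in con-4c and 230.3 in si-2c, against 3.01 in con-2c and 1.09 in si-4c. DNMT3B was closest to PGBD5 (0.102), TMEM150A (0.139) and IER3 (0.141). Among the members themselves, DNMT3B and TET3 (0.21) and DNMT3A and TET1 (0.25) had the most similar profiles. These are descriptions over libraries that share groups, with no test.

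Of the 7 partners of maintenance methylation, con-4c versus con-2c called 0 higher and 1 lower (median log2 fold change -0.30, against 0.11 for all genes tested, of which 3.25% were called lower). The 1 was PCNA, the replication clamp, at 26060 ± 4440 CPM (SD, n = 3) in con-2c and 11510 ± 589 in con-4c, while si-2c had 10820 ± 1003 and si-4c 26270 ± 1851. The PCNA log2 fold change was -1.18 in con-4c versus con-2c (edgeR adjusted p = 2.45e-07) and 1.19 in si-4c versus con-4c (adjusted p = 2.18e-07). UHRF2, the paralogue of UHRF1, was at 2946 ± 113 CPM in con-2c and 2272 ± 46.0 in con-4c, a log2 fold change of -0.38 (adjusted p = 0.000366), and at 2345 ± 35.4 and 2675 ± 172 in si-2c and si-4c. HELLS, a chromatin remodeller, had -0.72 (adjusted p = 0.000345), and USP7, a deubiquitinase that stabilises DNMT1, had -0.30 (adjusted p = 0.00359). In si-2c versus con-2c 0 were higher and 1 lower, in si-4c versus con-4c and in si-4c versus si-2c 1 was higher and 0 lower, and in each case the 1 was PCNA. The shares of all genes called in those directions were 1.8%, 3.12% and 1.47%.

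Of the 11 imprint and de novo methylation partners tested, con-4c versus con-2c called 2 higher and 0 lower, and si-2c versus con-2c likewise 2 and 0. All genes tested had 14.4% and 10.7% called higher there, so these counts lay near the background. In both comparisons they were NSD1 and SETD2, histone H3 lysine 36 methyltransferases, whose mark is read by the de novo methyltransferases. NSD1 was at 39.0 ± 4.08 CPM (SD, n = 3) in con-2c and 324.6 ± 10.7 in con-4c, while si-2c had 186.8 ± 13.1 and si-4c 44.5 ± 3.05. It rose in con-4c over con-2c by 3.06 on the log2 scale (SE 0.10, edgeR adjusted p = 3.34e-13) and in si-2c over con-2c by 2.26 (adjusted p = 1.4e-11). SETD2 was at 4.86 ± 0.269 CPM in con-2c and 36.3 ± 0.700 in con-4c, with 20.1 ± 4.38 for si-2c and 5.04 ± 1.15 for si-4c, and a log2 fold change of 2.90 (SE 0.17, adjusted p = 1.03e-09) in con-4c versus con-2c. As for TDG, the con-4c libraries lay above those of si-2c, and both above con-2c and si-4c. SMCHD1, a chromatin protein of the inactive X chromosome, had -0.39 (adjusted p = 0.00311) and KDM1B, a histone demethylase needed for imprints in oocytes, -0.31 (adjusted p = 0.00922) in con-4c versus con-2c. In si-4c versus con-4c and in si-4c versus si-2c, 0 were higher and 3 lower (beside 15.8% and 11.9% of all genes called lower): NSD1, SETD2 and ZFP57, which protects imprints and was named after its values were seen. ZFP57 was at most 0.789 CPM in every library and at 0 in si-4c.

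Among the base excision repair and GADD45 genes, GADD45B was called higher in con-4c versus con-2c by edgeR, as were 14.4% of all genes tested. GADD45B, a stress-induced adaptor linked to demethylation, was at 1.03 ± 0.231 CPM (SD, n = 3) in con-2c and 6.72 ± 0.355 in con-4c, with 3.88 ± 0.195 for si-2c and 0.907 ± 0.133 for si-4c, and its log2 fold change in con-4c versus con-2c was 2.70 (SE 0.25, edgeR adjusted p = 2.23e-07). The glycosylases NEIL3 and NEIL1 had -0.97 (adjusted p = 5.29e-07) and -0.92 (adjusted p = 6.53e-06), and APTX, which repairs blocked DNA ends, -0.92 (adjusted p = 7.12e-06), all under the fold minimum. GADD45B was also called higher in si-2c versus con-2c. In si-4c versus con-4c NEIL3 was called higher by edgeR (1.04, adjusted p = 2.3e-07) but not by DESeq2, and GADD45B and GADD45A, the latter named after its values were seen, were called lower both there and in si-4c versus si-2c. The base excision repair median was 0.12 in con-4c versus con-2c, beside 0.11 for all genes.

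Of the 9 methyl-CpG binding proteins tested, 0 were called in either direction in con-4c versus con-2c, in si-2c versus con-2c and in si-4c versus con-4c, and 1 was higher and 0 lower in si-4c versus si-2c (1.47% of all genes higher). In the first 3 of these comparisons 4, 3 and 2 had an unadjusted p under 0.05, and DESeq2 called 0 as well. The 1 called was MBD4, a glycosylase that also acts on deaminated methylcytosine, with -0.67 in con-4c versus con-2c (edgeR adjusted p = 0.000793) and 1.08 in si-4c versus si-2c (adjusted p = 1.03e-05). In con-4c versus con-2c MBD5 had 0.62 (adjusted p = 0.041), and MBD2 (-0.30, adjusted p = 0.0664) and ZBTB38 (0.19, adjusted p = 0.0923) did not pass the adjusted p. Among the 14 methyl donor genes, con-4c versus con-2c called 0 higher and 1 lower and si-2c versus con-2c likewise (3.25% and 1.8% of all genes were called lower), in both TYMS, the thymidylate synthase of the folate cycle. TYMS was at 228.0 ± 24.3 CPM (SD, n = 3) in con-2c and 83.5 ± 3.52 in con-4c (log2 fold change -1.45, adjusted p = 1.98e-09), with 94.01 to 107.3 CPM in si-2c libraries and 233.6 to 265.4 in si-4c libraries. MAT2A, which makes the methyl donor S-adenosylmethionine, went the other way in con-4c versus con-2c with 0.85 (adjusted p = 4.69e-06), while SHMT1 and AHCY, of the folate and methionine cycles, had -0.84 (adjusted p = 0.003) and -0.98 (adjusted p = 0.033). In si-4c versus con-4c 1 was higher (TYMS) and 1 lower (GNMT, named after its values were seen), beside 3.12% and 15.8% of all genes. GNMT was at most 0.762 CPM in every library, and at 0 in si-4c and in at least 1 con-4c library. Its call rests on 39 counts over con-4c. In si-4c versus si-2c 1 was higher (TYMS) and 0 lower, beside 1.47% and 11.9% of all genes. Of the 7 TET regulators and cofactor enzymes tested, 1 was higher in con-4c versus con-2c (OGDH, a 2-oxoglutarate dehydrogenase subunit, 1.32, adjusted p = 0.00672) and 0 lower, beside 14.4% of all genes higher. IDH1, which makes 2-oxoglutarate, the TET cosubstrate, had -0.82 (adjusted p = 2.44e-05), IDH3A -0.44 (adjusted p = 0.00888), and OGT, a glycosyltransferase that binds TET proteins, 0.61 (adjusted p = 0.000701). In si-4c versus con-4c 0 of these were higher and 1 lower (IDH2, named after its values were seen), beside 3.12% and 15.8% of all genes. In si-2c versus con-2c and si-4c versus si-2c 0 of these were called in either direction, where 4 and 3 had an unadjusted p under 0.05 and DESeq2 called 1 higher and 0. In si-2c versus con-4c, 1 of the 68 genes tested in these 6 lists was called, AHCY (1.20, adjusted p = 0.0388), beside 0.161% of all genes higher. AHCY was at 1.04 to 1.89 CPM in con-4c and 1.82 to 4.19 in si-2c, so the libraries overlapped. In si-4c versus con-2c, 0 of the 68 were called in either direction by edgeR or DESeq2, and 9 had an unadjusted p under 0.05. Of all genes tested 0.0333% were called higher there and 0.3% lower by edgeR.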

How the data were processed

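SMART-seq libraries of porcine embryos, 3 in each of 4 groups taken from the titles, were analysed. The authors deposited an integer table of raw counts by Ensembl identifier, without normalisation. The submitters' processing notes name cutadapt 1.9, HISAT2 2.2.1, StringTie 2.1.6, DESeq2, edgeR and build Sscrofa11.1; strand use and the treatment of multimapping reads are not given in the sources used here. Gene positions are RefSeq spans of that build, matched by symbol.

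Testing used edgeR 4.0.16 in R 4.3.3. After filterByExpr and TMM scaling (factors of 0.852 to 1.21), all 12 libraries entered 1 quasi-likelihood model of 4 group means. P-values were adjusted by Benjamini-Hochberg over all 17995 genes in each of 7 comparisons. Each SE is the size of the log2 fold change over the root of its F statistic. CPM was computed from the counts. The study used DESeq2 (1.42.0 here), which was run as an alternative, beside other scalings, filters, sample choices and the omission of each library. Members and lists were chosen with earlier results of these data known. From each pathway list at most 4 genes were named, those with the smallest p in con-4c versus con-2c; other names are marked. On simulated counts for con-4c versus con-2c over 17995 genes, 199 of 200 changed genes were recovered and 8 unchanged genes called. The changed genes lay above a CPM minimum in con-2c and differed by more than the fold minimum, equally often in each direction. The recovery therefore does not cover smaller differences, genes near the floor such as TDG in con-2c, or a mostly upward shift. Chi-square values of 7.27 to 38.7 per degree of freedom showed that no replicate pair matched within counting noise. Member sequences and transcript lengths were not used here. An item of the base excision repair list is not reported here, and calls over that list are therefore given without a count.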

Additional observations from a re-analysis of the deposited data

Results flagged for a closer look

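The difference between titles was not the same in si and control embryos for 5 members, by the interaction test of edgeR (adjusted over all genes tested, no fold minimum). By the same rule 45.5% of all genes tested passed. The interaction was 1.45 for DNMT1 (adjusted p = 9.95e-08), 1.24 for DNMT3B (adjusted p = 0.000161) and 0.86 for TET3 (adjusted p = 0.00224). With library totals DNMT3B (0.60, adjusted p = 0.0534) and TET3 (0.21, adjusted p = 0.478) no longer passed, and DNMT1 (0.80) fell under the fold minimum. The interaction was -1.004 for DNMT3A (adjusted p = 0.000116). For TDG the fitted value was -19.82 (adjusted p = 1.93e-15), which depends on the prior count because all 3 si-4c libraries held 0 counts, and is not a measure of size. The stage in the title disagreed with the tissue label in all 12 libraries.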

How the results depend on the processing

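Of the values of single members under the alternatives, 194 called ones stayed called in the same direction and 11 lost the call. Called values other than those of TDG were interactions of DNMT1, DNMT3A and DNMT3B, and the lost calls were all among these. The 194 include TDG in si-4c versus con-2c. Of the uncalled values 776 stayed uncalled, 18 became called and 22 changed sign. The 18 include values called only because the alternative without the minimum fold drops that threshold. TDG kept its call under every alternative in the comparisons other than si-4c versus con-2c, which is not read for TDG because it passed the low-count filter only through the other groups. Without the minimum fold the members called were 2 higher and 3 lower in con-4c versus con-2c, 2 and 2 in si-2c versus con-2c, 3 and 2 in si-4c versus con-4c, 1 and 2 in si-4c versus si-2c, 1 and 1 in si-2c versus con-4c, and 3 and 2 in the interaction. The shares of all genes tested that passed there in either direction were, in the same order, 35.8%, 29%, 36.8%, 28.9%, 7.54% and 45.5%. With only the groups compared in the fit, 0 members were lower in si-4c versus con-2c, since TDG did not pass the low-count filter there. In the interaction 0 members were called higher with library totals and 0 with library totals computed without DNMT1, a scaling chosen after seeing the data, and 1 was lower with no filter on low counts (DNMT3A at -0.99). With each library left out in turn, 0 to 1 members were lower in con-4c versus con-2c (DNMT3B -1.05 to -0.78; called without con-4c library 1) and 1 to 2 in the interaction (DNMT3A -1.16 to -0.90).

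Signs changed for these uncalled values. TET3 in si-2c versus con-2c was 0.36 with library totals, 0.34 with totals without DNMT1, 0.057 with at least 10 CPM in 3 libraries, and -0.149 to 0.062 with a library left out. UHRF1 was -0.106 to 0.135 there with a library left out, -0.012 in si-4c versus con-4c with library totals, and -0.45 and -0.40 in the interaction with library totals and totals without DNMT1. Under those 2 scalings DNMT3B was -0.046 and -0.020 and TET3 -0.077 and -0.051 in si-4c versus si-2c, and TET1 was 0.011 and 0.007 in si-4c versus con-2c. With a library left out, the ranges in si-4c versus con-2c were -0.192 to 0.032 for DNMT3A, -0.202 to 0.021 for DNMT3B and -0.105 to 0.168 for TET1, and DNMT3A was -0.012 to 0.160 in si-2c versus con-4c. The cause was not tested.

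Same-numbered libraries did not deviate together (r -0.05 to 0.029 over 18 pairs, 0 above 0.1; the best match was the own number in 16 of 36 cases), so the numbers were not taken to pair the samples. With the replicate block the counts of members called did not move. Over all genes the block called 2357 higher and 579 lower in con-4c versus con-2c.

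Counts over all genes moved by over 1.5 times under some alternatives without a library left out. In con-4c versus con-2c the 2598 higher and 584 lower calls ranged from 682 to 3731 and from 228 to 2716, in si-2c versus con-2c the 1918 and 324 from 462 to 3024 and from 58 to 2218, and in si-4c versus con-4c the 562 and 2852 from 210 to 2721 and from 667 to 3898. In si-4c versus si-2c the 264 and 2136 ranged from 50 to 2170 and from 458 to 3095, in si-4c versus con-2c the 6 and 54 from 1 to 43 and from 21 to 133, in si-2c versus con-4c the 29 and 293 from 1 to 399 and from 204 to 957, and in the interaction the 1777 and 4050 from 578 to 3275 and from 1134 to 6040. The stricter filter and the fit of only the groups compared tested fewer genes. Low counts limit TDG in con-2c and si-4c, where libraries held at most 14 counts, although the totals of these libraries were above those of con-4c.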
